A study of Homo sapiens with 4 samples.

Results

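Chemokines are small secreted proteins that draw leukocytes along a gradient, and each acts through membrane receptors that couple to inhibitory G proteins. The spacing of their first cysteines sorts them into the CC, CXC, CX3C and XC families, and the receptors are named after the family they bind. Atypical receptors bind chemokines without G protein signalling and remove or hold them. Myeloid cells are known both to secrete chemokines of inflammation and to leave the bone marrow or enter tissue under the control of receptors such as CXCR4 and CXCR2.

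All genes with a chemokine or chemokine receptor symbol were taken, in the CCL, CXCL, XCL, CX3C, CCR, CXCR, XCR1 and ACKR series. This gave 59 of the 17687 genes tested, 38 ligands and 21 receptors, each with a single array feature. CCL3L1, CCL4, CCL4L1, CCL4L2, CCL13, CCL14, CCL15 and CCR3 were not analysed here.

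RNA was measured on 4 Affymetrix expression arrays of NB4-R4, an NB4 derivative that has become resistant to all-trans retinoic acid (NB4 is a cell line from acute promyelocytic leukaemia). The control group was given the vehicle DMSO and the treated group was given MK-8776, an inhibitor of the cell cycle checkpoint kinase CHK1, at 4 µM. Both groups were harvested at 96 h, with 2 arrays each, described in the study design as biological replicates, and RNA came from live cells. Both groups are of a single resistant subclone, and how the cultures of a group were kept apart is not stated, so the p-values reflect only the spread between these samples, which may be technical. Values are RMA expression on the log2 scale, which is an array signal and not a count, and levels of different genes are not compared with each other. A change is the mean of the MK-8776 arrays minus the mean of the DMSO arrays. The threshold is an adjusted p of 0.05 in limma, and intervals are unadjusted 95% intervals from that fit.

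The correlation across genes was 0.993 between the arrays of either group and 0.981 to 0.989 between groups. The line's granule and myeloid markers were present: all 7 measured promyelocyte markers exceeded the overall median (5.77, the median of every value in the table) in the mean of the DMSO arrays. Of these CTSG, PRTN3 and PRSS57 fell and ANPEP rose, and the mean of PRTN3 in MK-8776 (5.315) was under that median. Of 6 monocyte and macrophage markers, 2 were below the table's lower quartile (3.97) in each group, and CD14 alone passed the threshold, with a rise of 1.37 (adjusted p = 0.0491, limma, and 0.0572 to 0.104 under quantile normalization, all features or a test against a fold of 1.2). PRSS57 also missed the threshold against that fold (0.0734). The mean level of the monocyte list was 4.59 and 4.43 on the DMSO arrays and 4.91 and 4.95 on the MK-8776 arrays. Of 5 megakaryocyte and platelet markers, PPBP rose and ITGA2B fell, and the remaining 3 were not called. Markers of B cells (3 measured) and of endothelial and stromal cells (6 measured) gave 0 calls in the limma fit.

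Among the ligands, the monocyte attractant CCL2, the neutrophil attractant CXCL8 and the macrophage inflammatory protein CCL3 rose after MK-8776, and the interferon-induced CXCL10 fell. These are 4 of 38 ligands, or 10.5%, whereas 0 of 21 receptors passed in the limma fit, with 4 receptors at an unadjusted p under 0.05, or 4 of 21 against 18.8% of all genes. Over all 59 genes, 3 rose, 1 fell and 55 did not pass. The background was 3.69% of all 17687 genes called, 1.66% upward and 2.02% downward. Among all genes whose higher group mean exceeded the overall median the share called was 6.59%, against 4 of 11 such ligands and 0 of 5 such receptors. That rule can admit a gene through a single group, so it favours changed genes, in the background as in the lists. In bulk RNA, fewer cells of a type and less RNA per cell cannot be told apart.

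**Figure D1:**
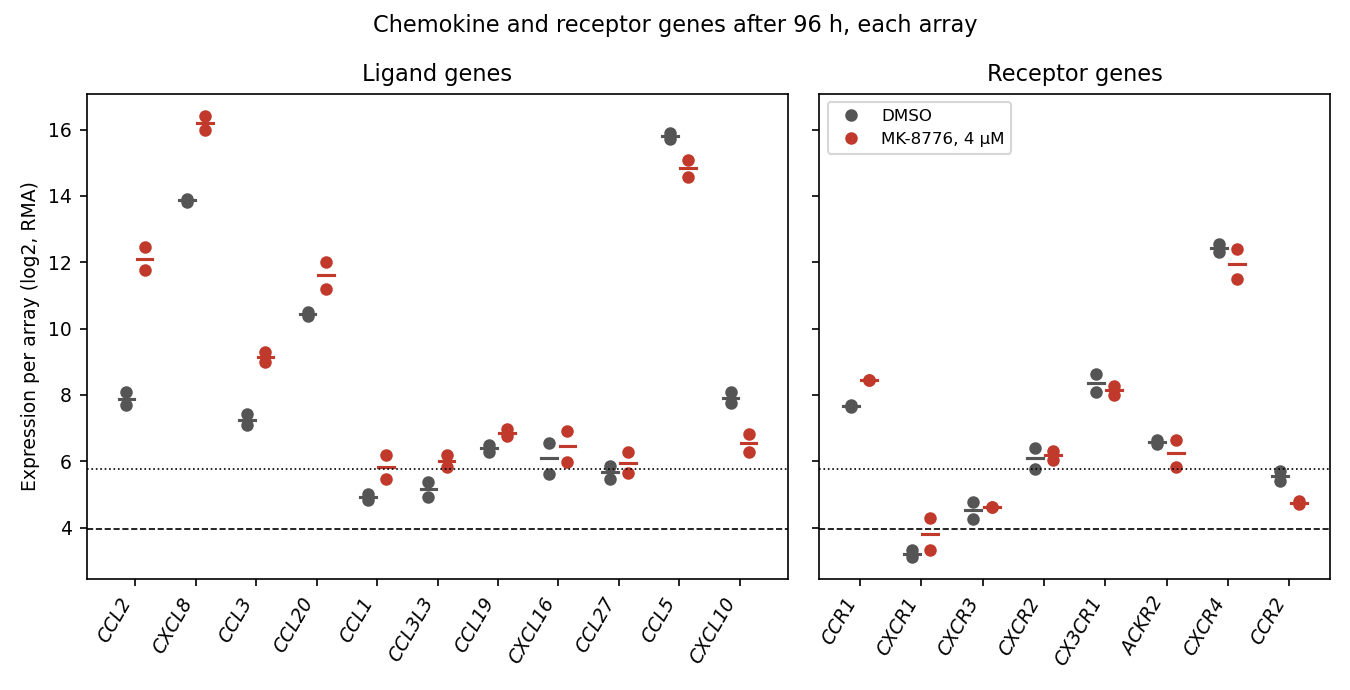
Expression of 11 ligand and 8 receptor genes on each array (log2, RMA), with DMSO arrays in grey and MK-8776 arrays in red. Points are single arrays, short bars are group means, and the dotted and dashed lines mark the median (5.77) and lower quartile (3.97) of all values. CCL2, CXCL8 and CCL3 sit higher on both MK-8776 arrays than on both DMSO arrays, CXCL10 sits lower, and most receptors overlap or lie close.

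CCL2, also called MCP-1, recruits monocytes through CCR2 (chromosome 17, 34255285 to 34257203, GRCh38). It measured 8.09 and 7.69 on the DMSO arrays and 11.75 and 12.47 on the MK-8776 arrays. The groups lay far apart, with a change of 4.22 (SE 0.28, interval 3.57 to 4.87, adjusted p = 0.000649, limma), or 18.6-fold. It was the largest change of all 59 genes. The related monocyte attractants did not pass. CCL7 went from 4.61 and 4.57 to 4.95 and 5.25, and CCL8 from 4.09 and 4.08 to 4.63 and 4.01. The part of monocyte-like cells in the rise of CCL2 was not tested.

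CXCL8 encodes interleukin 8, the main neutrophil attractant, which binds CXCR1 and CXCR2 (chromosome 4, 73740569 to 73743716). Its values were 13.92 and 13.81 in DMSO and 15.98 and 16.42 in MK-8776. The signal was thus high before treatment and higher on both treated arrays, with a change of 2.335 (SE 0.23, interval 1.81 to 2.86, adjusted p = 0.00310, limma), or 5.05-fold. The other ligands of CXCR2 that share this role, CXCL1, CXCL2, CXCL3, CXCL5 and CXCL6, had changes from -0.09 for CXCL6 to 0.77 for CXCL3, and none of these passed (adjusted p of at least 0.147, limma). In the group where each was higher, its mean fell between the table's lower quartile and median.

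CCL3, or MIP-1 alpha, attracts monocytes and other leukocytes through CCR1 (chromosome 17, 36088256 to 36090143). It went from 7.08 and 7.42 in DMSO to 8.98 and 9.28 in MK-8776, and the arrays of the groups did not overlap. The change was 1.88 (SE 0.23, interval 1.35 to 2.41, adjusted p = 0.00724, limma), or 3.68-fold. CCL3L3, a near-identical copy of CCL3, measured 5.38 and 4.92 against 5.83 and 6.19, a change of 0.86 that did not pass (adjusted p = 0.106, limma). Probes cannot be assumed to tell these copies apart, so both values are uncertain.

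CXCL10, which interferon induces and which draws activated T cells through CXCR3, was the ligand that fell (chromosome 4, 76021118 to 76023497). It measured 8.09 and 7.75 in DMSO and 6.82 and 6.28 in MK-8776. The change was -1.37 (SE 0.25, interval -1.95 to -0.79, adjusted p = 0.0285, limma), or 2.58-fold lower. The fall missed the threshold when tested against a fold of 1.2 (adjusted p = 0.0603), and its adjusted p ran from 0.0149 to 0.0603 over 9 alternatives that keep all 4 arrays. The other CXCR3 ligands, CXCL9 and CXCL11, had differences of -0.225 and -0.47 that did not pass, and CXCL9 was below the lower quartile in each group.

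These calls rest on all 4 arrays. When either DMSO array was left out the limma fit called 0 of the 59 genes and 0 of all genes, with CCL2 at adjusted p = 0.214 without DMSO replicate 1 and 0.314 without DMSO replicate 2. When either MK-8776 array was left out, CCL2 was the single call among the 59 genes (adjusted p = 0.0306 without the first and 0.0419 without the second). The changes themselves stayed between 3.86 and 4.58 for CCL2, 2.115 and 2.555 for CXCL8, 1.71 and 2.05 for CCL3, and -1.64 and -1.10 for CXCL10.

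The sequence before the gene start is shown for the called ligands whose promoter was at hand, because these genes are textbook targets of inflammatory transcription factors. The 250 bases before the first base of the gene were searched on both strands for GGNNNTTCC or the same letters with 1 more N in the middle (NF-kB-like, and the forms may overlap), for TGANTCA (AP-1), for the core of the interferon-stimulated response element (GAAA, then any 2 bases, then GAAA again) and for TATAAA, the usual core promoter box. Capitals mark every match, on the strand of the gene, 5′ to 3′, from RefSeq GRCh38.p14. The windows are chr4:73740319-73740568 (plus strand) for CXCL8, chr17:36090144-36090393 (minus strand) for CCL3 and chr4:76023498-76023747 (minus strand) for CXCL10.
CXCL8: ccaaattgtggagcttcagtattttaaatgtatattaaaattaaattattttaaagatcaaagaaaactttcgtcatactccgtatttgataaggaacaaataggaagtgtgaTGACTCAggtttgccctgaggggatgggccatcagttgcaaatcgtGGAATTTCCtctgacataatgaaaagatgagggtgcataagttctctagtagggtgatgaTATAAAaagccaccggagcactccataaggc
CCL3: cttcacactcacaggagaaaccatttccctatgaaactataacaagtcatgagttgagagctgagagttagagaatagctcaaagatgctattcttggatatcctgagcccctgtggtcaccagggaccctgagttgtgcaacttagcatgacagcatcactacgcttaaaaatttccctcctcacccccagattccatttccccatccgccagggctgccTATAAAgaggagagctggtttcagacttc
CXCL10: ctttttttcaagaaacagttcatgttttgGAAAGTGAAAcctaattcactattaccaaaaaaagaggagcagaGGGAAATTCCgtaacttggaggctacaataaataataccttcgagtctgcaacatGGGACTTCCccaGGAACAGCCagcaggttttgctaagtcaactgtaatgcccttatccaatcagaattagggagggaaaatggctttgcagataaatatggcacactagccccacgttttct
In CXCL8 the AP-1 letters TGACTCA lie 137 to 131 bases before the start, the NF-kB-like GGAATTTCC 91 to 83 bases before it and TATAAA 31 to 26 bases before it. CCL3 holds TATAAA alone, 29 to 24 bases before the start. CXCL10 holds the interferon element core GAAAGTGAAA 221 to 212 bases before the start, the NF-kB-like GGGAAATTCC at 177 to 168 and GGGACTTCC at 122 to 114, and a match on the other strand at 110 to 102.

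Promoters at the gene start were matched for 34 of the 59 genes, 26 ligands and 8 receptors, and CCL2 was not among them. An NF-kB-like match of either length was present in 16 of the 34, or 47.1%, against 30.2% of 12377 promoters of genes tested. These were 13 of the 26 ligands and 3 of the 8 receptors, and for TATAAA the split was 11 ligands and 1 receptor. TATAAA was present in 12 (35.3% against 9.35%), TGANTCA in 7 (20.6% against 5.05%) and the interferon element core in 3 (8.82% against 2.60%). All 6 neutrophil-attracting CXC genes held an NF-kB-like match, among them CXCL1, CXCL2, CXCL3, CXCL5 and CXCL6, which did not pass, beside CXCL8, which rose. Promoters of related genes are not independent, and the shares count each of them separately. CXCL1 and CXCL3 hold GGGAATTTCC 79 to 70 bases before the start and CXCL2 holds it at 78 to 69. CCL3 and CCL3L3 both hold TATAAA at 29 to 24. A match describes letters only and says nothing of binding.

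Among the ligands that did not pass, CCL20 had the highest and CCL5 the lowest change. CCL20, the ligand of CCR6 that draws dendritic cells and T cells, measured 10.51 and 10.38 in DMSO and 11.20 and 12.01 in MK-8776. Its change of 1.16 (SE 0.28, interval 0.51 to 1.81) missed the threshold (adjusted p = 0.0680, limma). It passed with a variance trend (0.0160) or among genes above the median level (0.0435), within a range of 0.0160 to 0.160 over alternatives that keep all 4 arrays. CCL20 replicate values in MK-8776 differed by 0.81, more than the 0.13 in DMSO, and its change was 0.755 without MK-8776 replicate 2.

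CCL5, or RANTES, a ligand of CCR1 and CCR3, was high throughout, with 15.70 and 15.90 in DMSO and 14.57 and 15.09 in MK-8776. The groups did not overlap, and the change was -0.97 (SE 0.24, interval -1.53 to -0.41, adjusted p = 0.0723, limma). It passed with a variance trend (0.00470) or among genes above the median level (0.0435), within a range of 0.00470 to 0.196 over alternatives that keep all 4 arrays. CCL5 is also known from T cells and NK cells. Of 6 T cell markers, CD3E passed with a change of -1.38 (adjusted p = 0.0264, limma), the other 5 were not called, and the mean level of the list was 5.21 and 5.22 on the DMSO arrays and 4.94 and 4.79 on the MK-8776 arrays. Of 6 NK cell markers, NKG7 passed with a change of 1.225 (adjusted p = 0.0320, limma) and the other 5 were not called. Against a fold of 1.2 both CD3E (0.0574) and NKG7 (0.0759) missed the threshold. The part of such markers in the change of CCL5 was not tested.

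Other ligands with a mean above the overall median differed less. CCL1, the ligand of CCR8, went from 5.00 and 4.82 to 5.46 and 6.18, a change of 0.91 (interval 0.29 to 1.53, adjusted p = 0.116, limma), or 0.55 when MK-8776 replicate 2 was left out. CCL19, the ligand of CCR7 that guides cells to lymph nodes, went from 6.50 and 6.29 to 6.76 and 6.97, a change of 0.47 (interval -0.02 to 0.96). In both genes the MK-8776 arrays lay above the DMSO arrays without passing the test. CXCL16, a membrane-bound ligand of CXCR6, and CCL27, a skin-homing ligand of CCR10, overlapped between groups, with changes of 0.36 and 0.285.

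By class, all 3 monocyte-attracting CC ligands were higher in mean and 1 passed, with a median change of 0.51. Of 5 ligands of the CCR1 type, 4 were higher, 1 passed and the median was 0.73. Of 6 neutrophil-attracting CXC ligands, 5 were higher, 1 passed and the median was 0.485. All 3 interferon-induced ligands were lower, 1 passed and the median was -0.47. Of 10 lymphocyte-attracting CC ligands, 7 were higher and 3 lower, and 0 passed in the limma fit, with 3 at an unadjusted p under 0.05. The 3 eosinophil attractants and the 8 remaining ligands, CXCL12 and XCL1 among them, had changes from -0.415 to 0.36 with 0 calls in the limma fit and 0 at an unadjusted p under 0.05. Classes of this size are described by counts only.

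**Figure D2:**
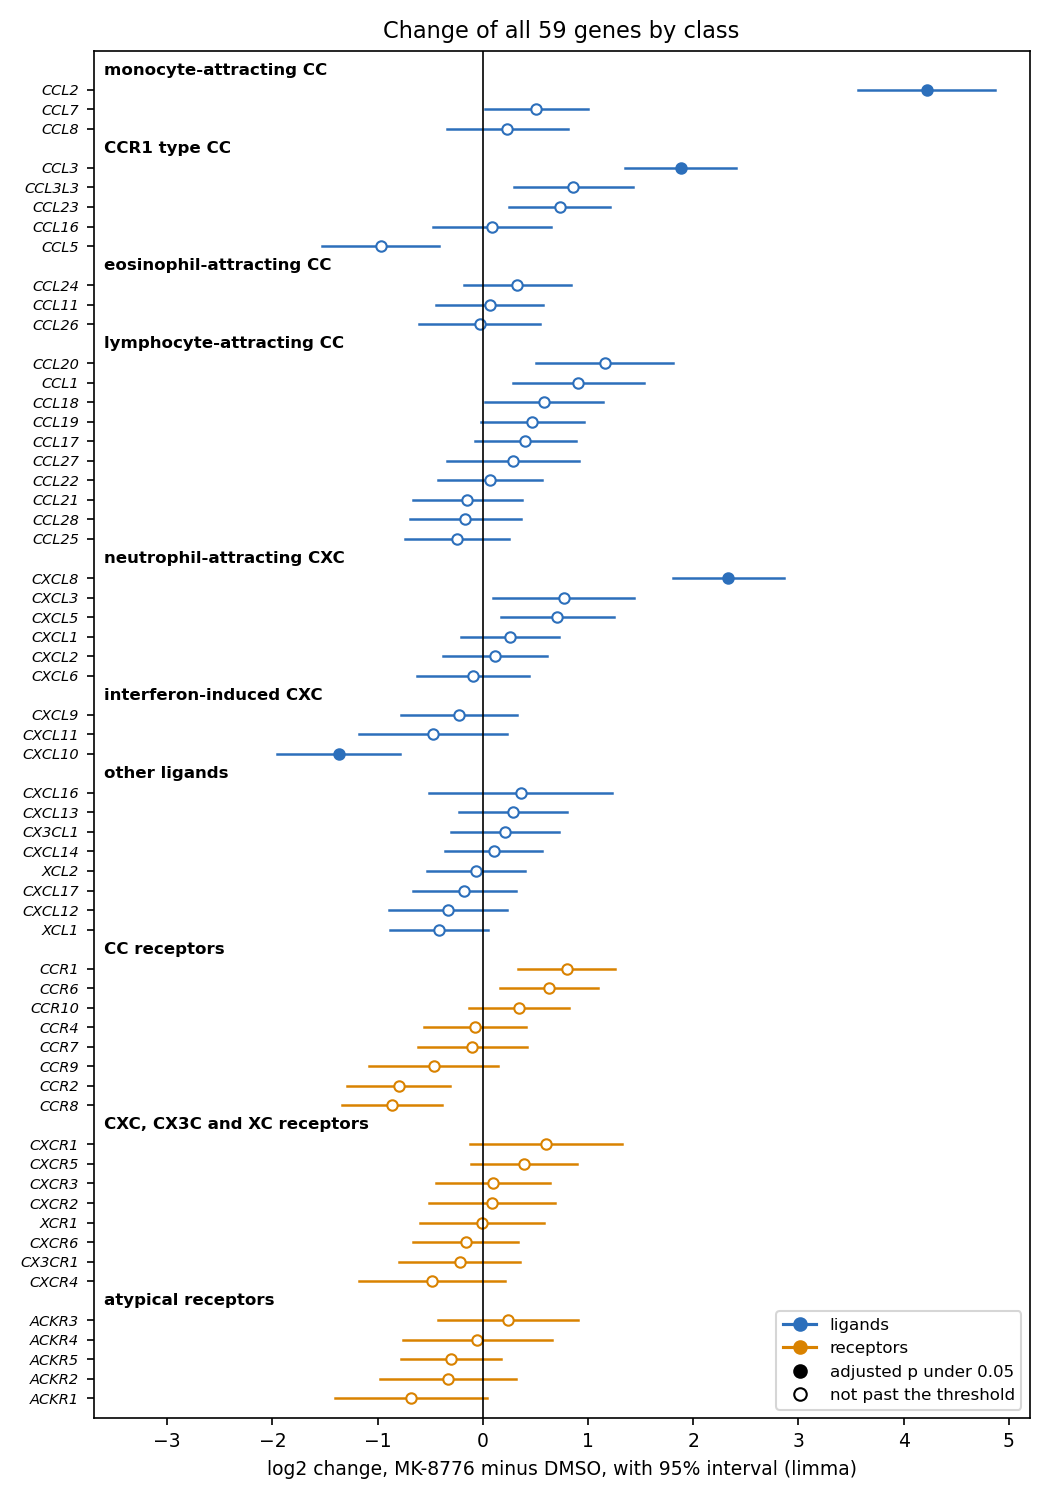
Change of each of the 59 genes (log2, MK-8776 minus DMSO) as points, with unadjusted 95% intervals from limma as lines, grouped by class, ligands in blue and receptors in orange. Filled points passed the threshold of 0.05: CCL2, CCL3, CXCL8 and CXCL10. All 21 receptor points are open and lie between -0.86 and 0.80.

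No receptor passed, and those whose group values separated went both ways. CCR1, which binds CCL3 and CCL5, measured 7.62 and 7.68 in DMSO and 8.44 and 8.46 in MK-8776. The replicates lay close and the groups apart, with a change of 0.80 (SE 0.20, interval 0.34 to 1.26, adjusted p = 0.0734, limma). CCR1 passed among genes above the median level (0.0387), within a range of 0.0387 to 0.240 over alternatives that keep all 4 arrays. CCR2, the receptor of CCL2, went the other way, from 5.70 and 5.40 to 4.79 and 4.71. Its change was -0.80 (SE 0.21, interval -1.29 to -0.31, adjusted p = 0.0883, limma). CCR8, the receptor of CCL1, went from 5.28 and 5.24 to 4.50 and 4.30, the lowest change of the receptors at -0.86 (adjusted p = 0.0641, limma), and was singled out after its values were seen, as was CCR6. CCR6, the receptor of CCL20, went from 3.26 and 3.41 to 4.00 and 3.93, a difference of 0.63 near the bottom of the range (adjusted p = 0.144, limma). These 4 are the receptors at an unadjusted p under 0.05.

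CXCR4, the CXCL12 receptor that holds immature myeloid cells in the marrow, measured 12.30 and 12.56 in DMSO and 11.50 and 12.39 in MK-8776. The groups overlapped, and the change of -0.485 had an interval of -1.18 to 0.21 (adjusted p = 0.457, limma). Leaving out the second MK-8776 array gave -0.93 and leaving out the first gave -0.04, so the size rests on a single treated array. CX3CR1, the fractalkine receptor of monocytes, measured 8.63 and 8.08 against 8.26 and 8.01, with a change of -0.22 (interval -0.79 to 0.35). CXCR2, the receptor of CXCL8 on mature neutrophils, measured 6.39 and 5.78 against 6.32 and 6.03, with a change of 0.09 (interval -0.51 to 0.69). Both overlapped between groups, and the intervals do not show that the levels were alike.

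CXCR1, the other CXCL8 receptor, measured 3.31 and 3.10 in DMSO and 3.32 and 4.29 in MK-8776, under the lower quartile of all values on 3 of 4 arrays. Its change of 0.60 rests on the second treated array, being 0.115 when that array was left out and 1.085 when the first was. CXCR3, the receptor of CXCL10, measured 4.77 and 4.26 against 4.61 and 4.62, with a change of 0.10. ACKR2, an atypical receptor that clears inflammatory CC ligands, measured 6.63 and 6.51 against 6.64 and 5.84, a change of -0.33. The 5 atypical receptors had changes from -0.685 for ACKR1 to 0.24 for ACKR3, and 0 passed in the limma fit, with 0 at an unadjusted p under 0.05. ACKR1 was 4.49 and 3.50 in DMSO, a replicate difference of 0.99, and 3.32 and 3.30 in MK-8776.

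Set beside their receptors, the called ligands had no partner past the threshold. CCL2 rose by 4.22, and CCR2 differed by -0.80. CXCL8 rose by 2.335, and CXCR1 and CXCR2 differed by 0.60 and 0.09. CCL3 rose by 1.88 and CCR1 differed by 0.80, whereas CXCL10 fell by 1.37 and CXCR3 differed by 0.10. Transcripts were measured, not receptor proteins at the cell surface.

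The median change of the 38 ligands was 0.225 and that of the 21 receptors -0.075, against 0.005 for all genes tested. Of the ligands 25 were higher and 13 lower in mean, and of the receptors 8 were higher and 13 lower. The arrays of the groups did not overlap in 21 ligands, 17 upward and 4 downward, and in 9 receptors, 5 upward and 4 downward, against a background of 48.2% of all genes, 24.0% upward and 24.2% downward. The ligand median dropped to 0.10 when MK-8776 replicate 2 was left out and to 0.14 when DMSO replicate 1 was. The receptor median turned to 0.07 without MK-8776 replicate 2, and ran from -0.17 to -0.11 without each of the other arrays. Of the 59 genes, 17 had their higher mean below the lower quartile, 10 ligands and 7 receptors, and for these the lack of a call says little.

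**Figure D3:**
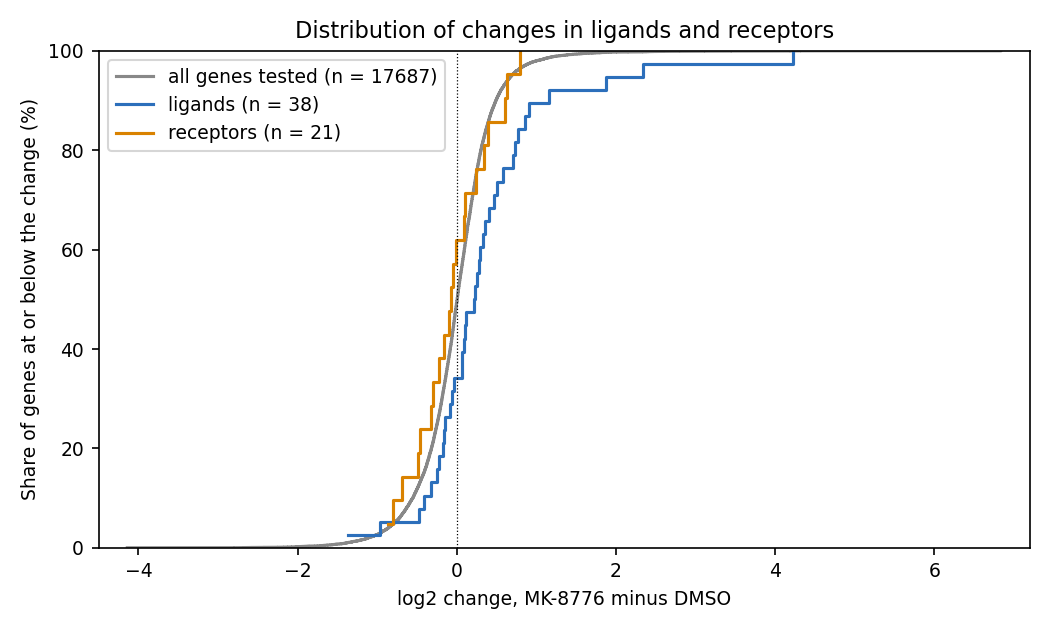
Share of genes (%) at or below each log2 change, MK-8776 minus DMSO, for 38 ligands (blue), 21 receptors (orange) and all 17687 genes tested (grey). The ligand curve lies to the right of the grey curve over most of its range, with a median of 0.225 and a tail up to 4.22, while the receptor curve stays within -0.86 to 0.80.

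Many chemokine genes lie side by side, so changes were set along the chromosome, joining genes with gaps of at most 250 kb. In the group of CCL2, CCL7, CCL11, CCL8 and CCL1 on chromosome 17 (34255285 to 34363233, GRCh38), CCL2 rose by 4.22, whereas CCL7 and CCL11, its next neighbours, differed by 0.51 and 0.065 and did not pass. In the group from CCL5 to CCL3L3 (35871491 to 36196758), the changes ran from -0.97 for CCL5 to 1.88 for CCL3. In the group of CXCL8, CXCL6, CXCL1, CXCL5, CXCL3 and CXCL2 on chromosome 4 (73740569 to 74099195), CXCL8 alone passed. The group of CXCL9, CXCL10 and CXCL11 further along chromosome 4 (76001275 to 76036070) had lower means in all 3 genes, and CXCL10 alone passed. In the receptor group on chromosome 3 (45886064 to 46360940), CCR1 and CCR2, which follow each other among the genes measured, differed by 0.80 and -0.80 and did not pass. These 4 ligand groups were shown because each holds a call, and in each of them called genes lay beside uncalled ones. The remaining 4 ligand groups, XCL2 with XCL1, CCL22 to CCL17, CCL26 with CCL24 and CCL27 to CCL21, held no call, with changes from -0.415 to 0.47.

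**Figure D4:**
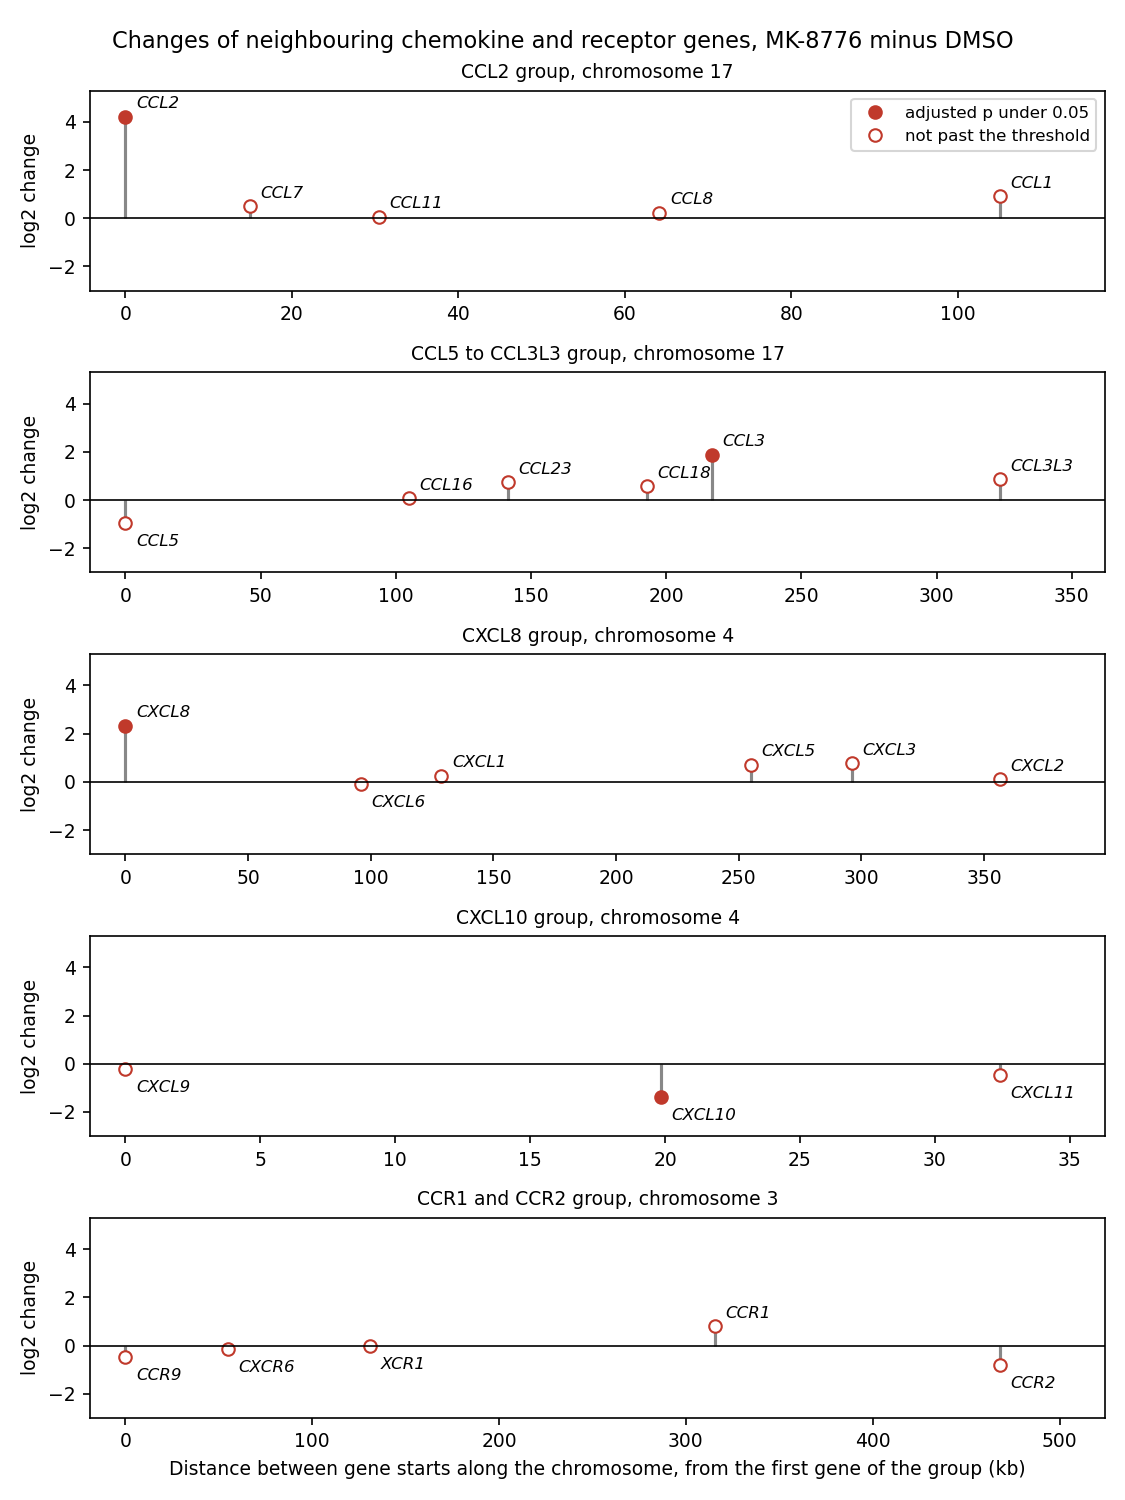
Change of each gene (log2, MK-8776 minus DMSO) against the distance (kb) of its start from that of the first gene of its group, for 4 ligand groups and 1 receptor group. Filled points passed the threshold and open points did not. CCL2 at 4.22 stands beside CCL7 at 0.51, and CXCL8 at 2.335 beside CXCL6 at -0.09.

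Related genes outside the symbol series were also read. PPBP, a platelet chemokine that yields the CXCR2 ligand NAP-2, went from 4.48 and 4.50 to 5.81 and 6.81, a rise of 1.82 (SE 0.32, adjusted p = 0.0235, limma). Its level in DMSO lay under the median of all values, and the platelet gene PF4, another CXC chemokine, differed by 0.235 and did not pass. Of the other platelet lineage genes, ITGA2B, an integrin subunit, fell by 1.55 (from 9.10 and 9.28 to 7.46 and 7.82, adjusted p = 0.0120, limma), and GP9 and GP1BA differed by -0.15 and -0.125 and did not pass. The part of platelet lineage RNA in the rise of PPBP was not tested. MIF, a cytokine that also binds CXCR2 and CXCR4, went from 11.72 and 12.35 to 10.46 and 10.84, a fall of 1.385 (adjusted p = 0.0325, limma). The fall of MIF missed the threshold when tested against a fold of 1.2 (0.0714, the highest of 9 alternatives that keep all 4 arrays, the lowest being 0.00444). Of the 11 related genes measured, 1 rose, 1 fell and 9 did not pass, or 18.2% called against 3.69% of all genes. In 7 of the 11 the higher group mean exceeded the median of all values, and 6.59% of all such genes were called. PPBP and CMKLR1 were among these 7 through their MK-8776 means alone, with DMSO means of 4.49 and 4.825. The chemerin receptor CMKLR1, with a change of 1.145, was among those not called (adjusted p = 0.0711, limma).

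Genes for proteins that cut, bind or present chemokines held 8 calls. Of 24 measured, 6 rose, 2 fell and 16 did not pass, or 33.3% called against 3.69% of all genes, and the median change was 0.35. In 17 of the 24 the higher group mean exceeded the median of all values, and 6.59% of all such genes were called. MMP1 was among these 17 through its MK-8776 mean alone (4.765 in DMSO), and PRTN3 through its DMSO mean alone (5.315 in MK-8776). CTSG, PRTN3 and ANPEP also count among the promyelocyte markers, and the list was chosen with earlier results of these data known. MMP9, the gelatinase that trims CXCL8, went from 11.72 and 11.96 to 14.36 and 14.98, a rise of 2.83 (adjusted p = 0.00221, limma). MMP1 rose by 1.98 (adjusted p = 0.00441), and MMP14, a membrane protease, rose by 1.385 (adjusted p = 0.0149, limma). TNFAIP6, which binds CXCL8, rose by 1.815 (adjusted p = 0.0243), and SDC2, a heparan sulphate proteoglycan that can hold chemokines, rose by 1.73 (adjusted p = 0.0110, limma). ANPEP, an aminopeptidase of the cell surface, rose by 1.075 (adjusted p = 0.0316, limma, and 0.0840 against a fold of 1.2). The neutrophil serine protease genes CTSG and PRTN3, whose products cleave chemokines, fell. CTSG changed by -2.20 (adjusted p = 0.00516) and PRTN3 by -2.005 (adjusted p = 0.0193, limma).

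The signalling genes downstream of chemokine receptors gave 2 calls. Of 69 measured, 1 rose, 1 fell and 67 did not pass, or 2.90% called, against 3.69% of all genes. As 63 of the 69 lay above the overall median in their higher group mean, the share of 6.59% among such genes is the closer background, and it is above that of the list. NCF1, a cytosolic subunit of the NADPH oxidase, rose by 2.38 (adjusted p = 0.00477, limma), and NCF1 has near-identical pseudogene copies. GRK5, a kinase that switches off G protein coupled receptors, went from 5.98 and 5.82 to 4.74 and 4.76, a fall of 1.15 (adjusted p = 0.0247, limma). That fall missed the threshold when tested against a fold of 1.2 (0.0603, the highest of 8 alternatives that keep all 4 arrays, the lowest being 0.0240). With a variance trend 4 genes of the list rose and 2 fell, or 8.70%, against 6.70% of all genes in that fit. The list's median change was 0.16.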

How the data were processed

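Each deposited log2 value gives the expression of a feature on an array and was made by the authors with RMA (background correction, normalization between arrays, summary of probes) against hg38, per the submitters' processing notes. The log2 scale was taken from the values (2.16 to 18.54). For RMA, version and settings: not given in the sources used here. RMA makes arrays alike, so changes are relative to other genes. There is no detection call, and the number of arrays limits precision.

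Of 21448 features, 17709 had 1 symbol in the platform annotation, 0 had several and 3739 had none. The symbols were matched by gene number to RefSeq (GRCh38.p14), and the feature with the highest mean was kept for 20 genes, which left 17687. The values were fitted with limma 3.58.1 in R 4.3.3 (lmFit, eBayes, two-sided, no block, no filter), with Benjamini-Hochberg adjustment over all genes, and the fit was tested on simulated data. With 2 arrays a group no exact permutation test can reach 0.05.

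Members and lists were chosen with earlier results of these data known. Named are members past the threshold, members with a mean above the median of all values, receptors and ligands of those that passed, the largest changes that did not pass, and up to 6 called genes of each other list. Other members were added with their values in view. Alternatives tried were median centring, quantile normalization, a filter on level, a variance trend (plain or robust), a replicate block, all features, the mean over features, a test against a fold of 1.2, subsets of members by level, near-identical ligand copies counted as 1, and leaving out each array.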

Additional observations from a re-analysis of the deposited data

How the results depend on the processing

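With all 4 arrays kept, CCL2, CXCL8 and CCL3 passed in each of the 9 alternatives run, and CXCL10 in 8 of 9. Counting near-identical copies as 1 left the number of called ligands at 4. When testing was limited to the 9180 genes whose mean over the 4 arrays exceeded the overall median, 14 of the 59 genes stayed in, 9 ligands and 5 receptors. Of these 7 passed, 5 upward and 2 downward, including 1 receptor, CCR1, against 942 of all genes in that fit (10.3%). The median change of ligands was 0.47 in that fit, 0.86 for ligands whose higher mean lay above the median and 0.345 for those above the lower quartile. Selection by the higher mean can admit a gene through a single group, which favours changed genes. CCL1, CCL3L3 and CCL27 lay under the median in DMSO and above it in MK-8776, and 0.86 is the change of CCL3L3. The receptor median was -0.22 in that fit, against -0.075 with all receptors. The cause of these shifts, and the part of the selection by the higher mean in them, was not tested. The signalling list had 6 calls with a variance trend, with or without robust estimation, and 1 with a replicate block or a test against a fold of 1.2, against 2 as reported; the cause was not tested. Leaving out each array in turn gave 0 to 1 calls among the 59 genes and among the ligands, 0 in the signalling list and 0 in the processing list, as fewer samples enter, and ligand medians of 0.10 to 0.2175. The lone array of a group is then assumed to vary like the other group.

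Changes of single genes with an array left out were read for part of the genes only. Among those, signs turned in genes with small changes only: over the 4 fits with an array left out, the changes ran from -0.73 to 0.07 for ACKR2, -0.035 to 0.605 for CCL27, -0.495 to 0.055 for CX3CR1, -0.105 to 0.825 for CXCL16, -0.215 to 0.395 for CXCR2 and -0.155 to 0.355 for CXCR3. CCL8 and ACKR3 were not read this way. Their means were higher in MK-8776, but MK-8776 replicate 2 (4.01 and 3.35) lay under both DMSO arrays. None of these genes was called in the limma fit.

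With the replicate block, 4 of the 59 genes passed as without it, and the processing list had 6 calls, 4 upward and 2 downward, instead of 8. TNFAIP6 (0.0813), ANPEP (0.0689), PPBP (0.0564), GRK5 (0.0595), PRSS57 (0.0537), CD14 (0.0670), CD3E (0.0663) and NKG7 (0.0613) missed the threshold, and calls over all genes went from 652 to 309. The labels tie replicate numbers to nothing shared, and deviations of same-numbered arrays had a correlation of 0.139 across genes, which is a single value with 2 arrays a group. Whether the numbers mark a shared culture or day is not known, so the arrays were not treated as paired.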

Other observations

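CXCL16 had the largest replicate difference that recurred in both groups. It measured 5.62 and 6.55 in DMSO and 5.98 and 6.91 in MK-8776, so replicate 2 was higher by 0.93 in each group, more than its change of 0.36 with treatment. ACKR4 was lower in replicate 2 by the same amount in both groups, from 4.18 to 3.51 in DMSO and from 4.13 to 3.46 in MK-8776. Over the 59 genes, replicate 2 minus replicate 1 had the same sign in both groups in 35, and this was not counted over all genes. CCL2, CCL20, CCL1 and CXCL3 were among the genes with replicate 2 lower than replicate 1 in DMSO and higher in MK-8776. CXCL8, CCL3L3 and CXCL5 were others with this pattern. The median SD within a group was 0.163 for the 59 genes in DMSO and 0.205 in MK-8776, against 0.163 and 0.170 for all genes tested.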
